A study of Mus musculus with 186 samples.

Results

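The Snx3 promoter was divided into 5 windows, and the CpGs of each window were either left intact or mutated from CG to TG, which gives 32 constructs if every combination is made. Each construct is named here by 5 digits, 1 for each window in order, where 0 is an intact and 1 a mutated window, so that 00010 has only window 4 mutated. The construct with all windows mutated is called the fully mutated construct. The 32 combinations were taken by their names from the 44 rows of the Snx3 library, whose other rows are the Snx3 reference, housekeeping promoters, the viral CMV promoter and an empty control. The result tables of the whole series hold 572 rows in 8 tables. Of the 32 combinations, 25 have activities in both cell lines, and 7 have none.

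The study asked whether CpGs outside of bound transcription factor motifs contribute to promoter activity. Constructs were measured with TrAC-seq, a parallel reporter assay in which a pool of barcoded promoters is inserted at 1 genomic site and transcripts are counted by their barcodes (BCs). Wild-type cells were mouse embryonic stem cells (ESCs) of the TC-1 line with a site for recombinase-mediated cassette exchange in the beta-globin locus, and TKO cells were made from this line by CRISPR-Cas9 deletion of Dnmt1, Dnmt3a and Dnmt3b, the DNA methyltransferases. Each cell line has 3 replicates, each with RNA and DNA barcodes, grown without a further treatment. The housekeeping promoters entered the wild-type pool as cells and the TKO pool as DNA before the insertion. Barcode counts hold no endogenous transcript, so neither the deletions nor the identity of the cells can be checked in them.

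Log2 activity is the mean over the BCs of a construct of the log2 of the RNA to DNA ratio plus a pseudocount of 0.05, so the lowest measurable log2 activity is -4.32. A construct passed when at least 3 BCs were found in at least 2 of 3 replicates, and it is called near the lowest measurable value when its mean lies within 0.5 of it. The combinations held 258 to 325 BCs per wild-type replicate and 365 to 440 per TKO replicate, of 477 to 633 and 524 to 648 in the whole library. A single value rested on 3 to 51 BCs in wild-type (median 10) and on 3 to 66 in TKO cells (median 14.5). The median SD between replicates was 0.36 in wild-type and 0.49 in TKO cells, and it was 0.42 and 0.77 for constructs above the lowest measurable range. Whether the replicates came from separate cultures is not stated, so p-values measure only the spread between these samples.

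CpG islands are stretches of mammalian DNA that keep a high density of CpGs, are usually free of DNA methylation and overlap most promoters of broadly expressed genes. Elsewhere in the genome CpGs are rare and mostly methylated. Snx3, a sorting nexin that acts in the transport of membrane proteins from endosomes, has such a promoter. CpGs in bound motifs of SP1 and SP3, which bind GC boxes, of GABPA, an ETS factor, and of NRF1, a factor of many housekeeping promoters, were spared in the mutants.

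The unmutated combination, 00000, is 392 bp long and 67.9% G+C. It holds 44 CpGs, which is an observed over expected CpG ratio (OE) of 0.995. Windows 1 to 5 remove 5, 10, 6, 9 and 12 CpGs, and the fully mutated construct keeps 2 CpGs, at an OE of 0.0625 and 57.1% G+C. From the composition of 00000, 152 C and 114 G, a single 392-bp stretch within 1500 bp of the annotated start of Snx3 matched, chr10:42221646-42222037 of mm9 on the plus strand. The gene spans chr10:42221836-42255187, so the first 190 bp of the construct lie upstream of the annotated start and the remaining 202 bp in exon 1, in the 5′ UTR, ending 99 bp before the start codon. This place was inferred from base composition, since the construct sequences were not used here. The upstream 190 bp (chr10:42221646-42221835, mm9 reference) are shown, with their 16 CpGs in capitals, because the CpGs of window 1 and most of those of window 2 would lie there if the windows follow each other in the order of the digits, and they also occur in the RefSeq promoter of Snx3 (GRCm38.p6).
Snx3 promoter, upstream of the start: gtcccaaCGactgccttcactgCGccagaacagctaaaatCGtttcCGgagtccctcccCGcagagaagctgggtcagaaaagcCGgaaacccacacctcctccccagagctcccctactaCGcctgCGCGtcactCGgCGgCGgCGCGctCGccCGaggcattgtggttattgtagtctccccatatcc
The other 28 CpGs lie downstream of the start. In that order, the 5 CpGs of window 1 lie between positions 8 and 122 of the construct, the 10 of window 2 between 85 and 195, the 6 of window 3 between 156 and 236, the 9 of window 4 between 220 and 282 and the 12 of window 5 between 279 and 388, whichever 2 CpGs were spared. Windows 4 and 5 are then entirely within the transcribed part, since the annotated start is position 191. The ETS core CCGGAA occurred at position 84 and, on the minus strand, at position 44, and it is found on either strand in 14.9% of 32851 RefSeq promoters of 300 bp, which are shorter than the construct. The GC box GGGCGG occurred at positions 317 and 339 (35.7% of these promoters), and the NRF1 core GCATGCGC was not in the 392 bp (2.71% of these promoters). No motif overlapped another, and which CpGs were spared is not stated in the files. Each of these ETS and GC box sites holds a CpG, and the fully mutated construct keeps only 2, so at this place they cannot all have been spared. Both GC boxes lie within the range given for window 5.

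The 7 combinations without activities are 00000, 00001, 01000, 01001, 10000, 10001 and 11000. All of them have windows 3 and 4 both intact, and of the 8 combinations of that kind only 11001 was measured, on 3 and 4 BCs in wild-type and on 3 BCs in TKO cells, in replicates 2 and 3. For 00000 and 10000 a single BC was recovered, in TKO and in wild-type cells, respectively. So the unmutated combination itself, and 3 of the 5 combinations with 1 mutated window, were not measured. The Snx3 row, a longer insert of 517 bp, served as reference. It has 46 CpGs, and its OE of 0.920 and its G+C content of 62.5% are below those of 00000. Its log2 activity was -0.39, 0.71 and -0.77 in the wild-type replicates and -0.94, -0.01 and 0.93 in the TKO replicates, on 3 to 7 BCs. The reference itself therefore had an SD of 0.77 and 0.93.

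Combinations with more mutated windows had lower activities, down to the lowest measurable value. Neither of the measured combinations with 1 mutated window passed the test against the reference. With only window 4 mutated (00010, 35 CpGs), log2 activity was 1.86, 0.05 and -0.27 in wild-type and -0.69, -0.26 and 0.29 in TKO cells. With only window 3 mutated (00100, 38 CpGs), it was -1.12 and -1.36 in wild-type replicates 1 and 3, on 3 and 4 BCs, and -0.74, 1.10 and -0.71 in TKO cells. The wild-type values of 00100 lay below all those of 00010, while the TKO values overlapped. The median of the 7 measured combinations with 2 mutated windows was -1.91 in wild-type and -0.98 in TKO cells. It was -2.91 and -2.86 for the 10 combinations with 3 mutated windows and -4.04 and -3.76 for the 5 with 4.

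Combinations with the same number of mutated windows differed widely. Among those with 2 mutated windows, 10010 had 0.27, 1.07 and -0.85 in wild-type, 10100 had 0.22, -0.49 and -0.23, and 00110 had -1.20, 0.28 and -0.04. The replicates of these 3 overlapped those of the reference. The other 4, in contrast, had wild-type means of -1.91 for 01100, -1.97 for 01010, -2.35 for 00101 and -2.36 for 00011, and all 4 have window 2 or window 5 mutated. Within this class the wild-type means reached from -2.36 to 0.16. In TKO cells they reached from -2.75 (01100) to 0.48 (00110).

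The 3 highest combinations in wild-type were 00010, 10010 and 10100, with means of 0.55 ± 1.15, 0.16 ± 0.97 and -0.17 ± 0.36 (SD, n = 3), and all 3 keep windows 2 and 5. The 3 lowest were 01111, 11011 and the fully mutated construct, with -4.32, -4.30 and -4.25, on 9 to 51 BCs. For 01111, which keeps only window 1, all 6 replicates of both lines were at -4.32. For 11011, which keeps only window 3, the wild-type replicates were -4.32, -4.29 and -4.28 and the TKO replicates -4.32, -4.32 and -4.11. The fully mutated construct had -4.32, -4.32 and -4.10 in wild-type and -4.22, -4.28 and -4.21 in TKO cells. Differences among these 3 cannot be measured, since they lie at the end of the scale.

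Of the constructs with a single intact window, 2 stood above the range near the lowest measurable value in both lines. The construct with only window 5 intact (11110, 14 CpGs) had -2.83, -3.34 and -3.76 in wild-type and -3.78, -3.23 and -2.06 in TKO cells. That with only window 4 intact (11101, 11 CpGs) had -3.78, -3.30 and -3.97 in wild-type and -3.33, -3.37 and -3.01 in TKO cells. Every value of both constructs was above every value of the fully mutated construct in the same line. With only window 2 intact (10111, 12 CpGs), activity was -4.09, -3.91 and -4.11 in wild-type, near the lowest measurable value, and -4.32, -4.16 and -2.81 in TKO cells, where replicate 3 stood apart.

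Relative to the Snx3 reference of the same replicate, 20 of the 25 measured combinations were lower in wild-type and 20 of 25 in TKO cells (limma, Benjamini-Hochberg adjusted p under 0.05). Over all rows of the library tested against it, the combinations included, 75.8% of 33 were lower in wild-type and 71.9% of 32 in TKO cells, so the share of the combinations is close to that of the whole library, of which they are the larger part. The median difference from the reference was -2.22 over the combinations and -2.22 over all rows in wild-type, and -2.75 and -2.69 in TKO cells. No combination was higher with all replicates. Without wild-type replicate 2, 00010 was called higher (1.37, adjusted p = 0.00727). Among all rows only 3.03% were higher in wild-type, which is Actb, and 0% in TKO cells. The 5 combinations that were not lower are the same in both lines, 00010, 00100, 00110, 10010 and 10100, and all of them keep windows 2 and 5. The only other measured combination that keeps both, 10110, had differences of -1.67 in wild-type and -0.95 in TKO cells (adjusted p = 0.00173 and 0.0297) and was called lower in both. For the 5, differences from the reference in wild-type were 0.69 for 00010 (adjusted p = 0.199), -0.66 for 00100 over 2 replicates (adjusted p = 0.32), -0.17 for 00110, 0.31 for 10010 and -0.02 for 10100 (adjusted p = 0.57 to 0.973 for the last 3). The fit gave all complete differences from the reference a common SE, whatever their own spread. It was 0.50 in wild-type, or 0.61 for 00100, and 0.40 in TKO cells. Every construct was compared with the same reference values, so the noise of the reference is shared and these tests are not independent. Their adjusted p-values do not allow for this. In TKO cells 10100 was closest to the threshold, at -0.81 (adjusted p = 0.0628), and it was called lower without TKO replicate 1 (-1.12, adjusted p = 0.0367), so that the agreement of the lines rests on that replicate. The other 4 had TKO differences between -0.21 and 0.48.

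The 3 measured ways to combine windows 3 and 4 show what a second window added. Relative to the reference in TKO cells, mutating window 3 alone gave -0.11, window 4 alone -0.21 and both together 0.48 (adjusted p = 0.27 for the last). In wild-type the same 3 differences were -0.66, 0.69 and -0.17. None of the 6 passed the test. With windows 1, 2 and 5 intact, constructs with window 3, window 4 or both mutated were thus not detectably below the reference. The reference is a different, longer insert, and 00000 was not measured, so the loss from these windows itself could not be measured. The SE was 0.50 to 0.61 in wild-type and 0.40 in TKO cells, so smaller differences can be missed. With window 5 mutated as well, 00111 was -3.22, -4.20 and -4.15 in wild-type and -4.12, -3.99 and -3.40 in TKO cells. Its wild-type mean was near the lowest measurable value, so it was at least 13.1-fold below the reference (log2 difference -3.71 ± 0.50 SE, adjusted p = 1.53e-09, limma). That SE is the common one of all complete constructs, not the spread of 00111 itself.

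The effect of a window was measured directly in matched pairs, 2 combinations that differ only in that window, as the log2 difference between mutated and intact within a replicate. There were 54 such pairs in each line, which share constructs and are not independent. Activity was lower with the window mutated in 23 of 54 pairs in wild-type, or 42.6%, and in 30 of 54 pairs in TKO cells, or 55.6% (limma, adjusted p under 0.05). It was higher in 0% of pairs in wild-type and in 1.85% in TKO cells, which is the single pair from 11001 to 11101 that mutates window 3, measured in 2 replicates. Of the pairs, 20 were lower in both lines. In wild-type the calls rest on all 3 replicates, since 12 pairs passed without replicate 2 and 0 without replicate 1 or without replicate 3, while 22 to 26 passed in TKO cells with any replicate left out. Without the replicate block, that is with constructs as unpaired groups, 14 pairs were lower in TKO cells and 29 in wild-type. The main fit gave all complete TKO pairs a common SE of 0.39, whatever their own spread. In wild-type the SE differed between pairs, from 0.25 to 0.75, so the numbers of calls cannot be compared directly between the lines.

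Window 5, with 12 CpGs, and window 2, with 10, gave the largest losses. Mutating window 5 lowered activity in 8 of 12 pairs in wild-type and 11 of 12 in TKO cells, and the mean difference was negative in all 12 pairs of each line. The mean over pairs was -2.15 ± 0.25 in wild-type (SD over 3 replicates, 11 complete pairs), a 4.43-fold loss that is a minimum, as 6 of the 12 mutated constructs were near the lowest measurable value, and -2.11 ± 0.10 in TKO cells. Mutating window 2 lowered activity in 7 of 12 pairs in wild-type and 10 of 12 in TKO cells, with means of -1.50 ± 0.15 and -1.64 ± 0.24, and again all 12 mean differences of each line were negative. Losses of the other windows were smaller and less regular, but the windows were not compared in the same constructs. Of the 9 pairs of window 3, 8 had window 4 mutated, and of the 9 pairs of window 4, 8 had window 3 mutated. In wild-type 4 and 5 of their mutated constructs were near the lowest measurable value, so these means are limited by the scale too. Window 3 passed the test in 3 of 9 pairs in wild-type and 4 of 9 in TKO cells, with means of -0.94 ± 0.18 and -0.63 ± 0.05. Window 4 passed in 3 of 9 pairs in each line, with means of -0.97 ± 0.09 and -0.70 ± 0.14. Window 1, with the fewest CpGs, passed in 2 of 12 pairs in each line, and its means were -0.53 ± 0.07 and -0.31 ± 0.32.

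The loss from 1 window varied several-fold with the construct in which it was made. In wild-type the largest loss of window 5 was from 10010 to 10011, where the 3 wild-type differences were -4.35, -3.61 and -2.89 (mean -3.62, 12.3-fold, adjusted p = 0.00808). The TKO differences of this pair were -3.65, -3.17 and -2.79. In TKO cells the loss from 00110 to 00111 was larger, with -4.45, -4.65 and -3.83 (mean -4.31, adjusted p = 1.03e-17), and it ended near the lowest measurable value. The smallest wild-type loss of window 5 was from 11110 to the fully mutated construct, at -1.50, -0.98 and -0.35 in wild-type (adjusted p = 0.075), and the mutated construct of this pair was at the lowest measurable value, so its loss is a minimum. From 11100 to 11101, where both constructs were above that range, window 5 gave only -1.06, -0.17 and -1.71 in wild-type (mean -0.98 ± 0.78, adjusted p = 0.0934), and its TKO mean of -0.60 was the smallest loss of window 5 in that line.

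For window 2 the largest wild-type loss was from 10100 to 11100, at -2.95, -2.65 and -2.03 in wild-type (5.82-fold, adjusted p = 0.00808) and -1.28, -2.22 and -1.95 in TKO cells. All 6 differences were negative. In TKO cells larger losses were measured from 00110 to 01110 (mean -2.95) and from 00101 to 01101 (mean -2.94). The smallest was from 10111 to the fully mutated construct, at -0.23, -0.41 and 0.01, where both constructs were near the lowest measurable value. For window 1 the pair from 00110 to 10110 lost most, at -0.40, -2.01 and -2.10 (adjusted p = 0.0461), with a like mean of -1.43 in TKO cells. At the other end in wild-type, the pair from 00100 to 10100 had differences of 1.34 and 1.13 in the 2 replicates that have both values (adjusted p = 0.0588), and of -0.38, -2.45 and 0.72 in TKO cells. This wild-type pair was called higher with 0.1 added to activity (adjusted p = 0.0422, limma) and without the replicate block (adjusted p = 0.0276).

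For window 3, the wild-type loss was largest from 10010 to 10110, at -1.87, -2.80 and -1.29 in wild-type (3.96-fold, adjusted p = 0.0142) and -2.17, -0.20 and -0.86 in TKO cells, where the largest loss was from 01010 to 01110 (mean -1.39). The other extreme was the pair from 11001 to 11101, with 1.02 and 0.04 in wild-type (adjusted p = 0.375) and 0.95 and 1.31 in TKO cells (adjusted p = 0.0365). In TKO cells the starting construct 11001 was at -4.32, and the call was lost with 0.1 added to activity (0.48, adjusted p = 0.134) and without replicate 1, which leaves the same 2 values (adjusted p = 0.0815). For window 4 the wild-type loss was largest from 10101 to 10111, which is near the lowest measurable value, at -2.16, -1.24 and -2.01 in wild-type (3.49-fold, adjusted p = 0.0123) and -2.04, -1.20 and -1.71 in TKO cells. The wild-type and TKO values overlap. The largest TKO loss of window 4 was from 00101 to 00111, with a mean of -2.86. At the other end, from 00100 to 00110, the differences were -0.08 and 1.32 in wild-type and 1.07, -0.44 and 1.14 in TKO cells, and neither line passed the test (adjusted p = 0.375 and 0.188).

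Among the measured pairs, the median loss was not largest with 1 other window mutated. No pair starts from the unmutated 00000, and the 1 other mutated window was always window 3 or window 4. The medians pool different windows, and the pairs from 00100 rest on 2 wild-type replicates. In wild-type the median difference was -0.77 over the 8 pairs with 1 other window mutated, -1.51 over 21 pairs with 2, -0.97 over 20 pairs with 3 and -0.21 over the 5 pairs with 4. The mutated construct was near the lowest measurable value in 0, 5, 12 and 5 of these pairs. In TKO cells the medians were -0.78, -1.30, -0.57 and -0.47. Small losses in the 5 pairs that end in the fully mutated construct are therefore bounded by the scale. Without any construct near the lowest measurable value, the mean losses in wild-type were -0.71 ± 0.05 for window 1 (7 pairs), -1.89 ± 0.18 for window 2 (7 pairs), -1.06 ± 0.49 for window 3 (4 pairs), -0.90 ± 0.28 for window 4 (3 pairs) and -2.14 ± 0.44 for window 5 (5 pairs). Windows 2 and 5 also had the largest of these means in TKO cells, with -1.90 ± 0.38 for window 2 and -1.88 ± 0.26 for window 5, against -0.26 ± 0.35 for window 4.

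The state of window 2 went with the loss from window 5, and the reverse. In wild-type, mutating window 5 changed activity by a median of -2.56 in the 6 pairs with window 2 intact and of -1.56 in the 6 with window 2 mutated, where 2 and 4 of the mutated constructs were near the lowest measurable value. Mutating window 2 changed it by a median of -2.24 with window 5 intact and of -0.80 with window 5 mutated, and 4 of the latter 6 mutated constructs were near the lowest measurable value, against 0 of the former. The TKO medians were -2.67 and -1.53 for window 5 and -1.97 and -1.14 for window 2, with 1 and 5, and 0 and 5, of the mutated constructs near the lowest measurable value. The part of that limit in these differences was not tested. For window 4 the TKO median was 0.07 over 4 pairs with window 5 intact and -1.0 over 5 pairs with window 5 mutated. In wild-type these medians were -0.52 and -0.56. With window 5 mutated, 4 of the 5 mutated constructs in TKO cells and 5 of 5 in wild-type were near the lowest measurable value. With window 5 intact it was 0 in each line. The wild-type median with window 5 mutated is therefore bounded by the scale, and the difference between the states was not tested.

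Interactions were tested in sets of 4 constructs, as the difference between the effect of a window with another window mutated and its effect with that window intact, with the 3 remaining windows unchanged. A value of 0 means that the log2 effects add up, a positive value that both together cost less than their sum and a negative value that they cost more. All 4 constructs were measured for 43 sets over the 25 combinations. In wild-type no set passed the test, 0% in either direction (limma, adjusted p under 0.05), while 7 had an unadjusted p under 0.05. Without the replicate block 6 wild-type sets passed, 4 positive and 2 negative, and at a minimum of 10 BCs 3 of 5 sets passed, all positive. In TKO cells 14% of the sets were positive and 11.6% negative, that is 6 and 5 sets. The median over the 43 sets was 0.25 in wild-type and 0.13 in TKO cells. Of the 11 sets that passed in TKO cells, 10 had the same sign in wild-type, and the sign was shared by 30 of all 43.

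These calls depend on single replicates and on the scale. Without TKO replicate 1, 2 or 3, the number of called sets was 5, 7 and 0, and it was 0 when interactions were computed on linear activities. The fit gave all complete sets of TKO cells a common SE of 0.50, and all 6 positive sets contain a construct near the lowest measurable value, against 2 of the 5 negative sets. With such constructs left out, 1 of 16 sets passed, the negative set of windows 2 and 3 from 00010.

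The sets with the largest positive values in TKO cells joined window 2 with window 5 or window 4. From 00110, mutating window 2 changed TKO activity by -2.95 with window 5 intact and by -0.49 with window 5 mutated, an interaction of 2.82, 2.95 and 1.63 in the 3 replicates (adjusted p = 6.15e-05). In wild-type this set had a mean of 1.57 ± 1.15 (adjusted p = 0.243). From 00101, window 2 changed TKO activity by -2.94 with window 4 intact and by -0.49 with window 4 mutated, and the 3 interaction values were 2.51, 2.59 and 2.25 (wild-type mean 1.31 ± 0.59, adjusted p = 0.28). In both sets 01111, at the end of the scale, is the doubly mutated construct. The next were windows 1 and 2 from 00101, with a TKO mean of 1.81, windows 2 and 5 from 10110, with 1.59, and windows 1 and 5 from 00110, with 1.51. Over the 5 complete sets of windows 2 and 5, the wild-type mean was 1.46 ± 0.30 (SD, n = 3), and it was 1.43 ± 0.73 over the 2 sets with no construct near the lowest measurable value. It was the largest of the wild-type means of the 9 window pairs with complete sets, and for windows 2 and 4 the mean over 3 sets was 1.20 ± 0.20. The sets from 00100, measured in 2 replicates and not in these means, had the opposite sign, with -1.07 for windows 2 and 5 and -1.04 for windows 2 and 4. In TKO cells the mean of windows 2 and 5 was 0.79 ± 0.99 over 6 sets, which include the set from 00100.

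The largest negative value joined windows 4 and 5. From 00100, TKO activity changed by 0.59 when window 4 was mutated, by -0.86 when window 5 was mutated, and fell from -0.11 to -3.84 when both were. The interaction was -3.58, -2.82 and -3.94 in the 3 replicates (adjusted p = 3.44e-08), although the doubly mutated 00111 is near the lowest measurable value, which can only make this value less negative. The 2 wild-type replicates of this set had a mean of -1.95 (adjusted p = 0.243). All 4 TKO sets of windows 4 and 5 were negative, with a mean of -1.56 ± 0.40 (SD, n = 3), while the wild-type mean over 3 complete sets was 0.04 ± 0.20. These means cover unlike sets, since the set from 00100 is in the TKO mean only. The 3 sets that are complete in both lines, from 01100, 10100 and 11100, had TKO means of -0.69, -1.51 and -0.61. Their wild-type means were 0.24, -0.15 and 0.04. The difference between the lines was not tested for sets of 4. From 10100 the same windows gave a TKO mean of -1.51 (adjusted p = 0.0143) without a construct near the lowest measurable value, and a wild-type mean of -0.15.

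The remaining negative sets in TKO cells all start from 00010 and contain 00110. They join windows 2 and 3, with -1.85, -2.38 and -2.03 (adjusted p = 7.43e-04), windows 3 and 5, with a mean of -1.78 (adjusted p = 0.00383), and windows 1 and 3, with -1.77 (adjusted p = 0.00383). In each of them the TKO mean of 00110 was 0.48 against -0.22 for the starting construct 00010, a difference of 0.70 that did not pass its own test (adjusted p = 0.124). The wild-type means were 0.48, -0.63 and -1.12, with SDs of 2.14 to 2.54, and 00010 had 1.86 in wild-type replicate 1 against 0.05 and -0.27 in the others.

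A sum of 5 window effects was fitted to each replicate as a description. It accounted for 0.804 ± 0.021 of the variance in wild-type and 0.797 ± 0.049 in TKO cells (SD, n = 3, 24 to 25 constructs). The number of CpGs alone accounted for 0.737 ± 0.028 and 0.710 ± 0.019. That number is itself a weighted sum of the 5 windows, so the fit of 5 windows could not account for less. The gap between the fits was not tested. Divided by the CpGs of each window, the fitted change per CpG in wild-type was -0.18 ± 0.02 for window 5, -0.15 ± 0.01 for window 2, -0.14 ± 0.03 for window 3, -0.09 ± 0.02 for window 1 and -0.08 ± 0.02 for window 4. In TKO cells it was -0.18 ± 0.01 and -0.17 ± 0.03 for windows 5 and 2 and between -0.07 and -0.09 for the others. The fitted value for the unmeasured 00000 was 0.58 ± 0.55 in wild-type and 0.49 ± 0.43 in TKO cells, close to its spread between replicates.

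Some combinations departed from this sum in both lines. The measured activity of 00111 was lower than the sum by 0.78 ± 0.65 in wild-type and by 1.06 ± 0.39 in TKO cells, in every replicate. In the other direction, 11101 was above the sum by 0.65 ± 0.51 and 0.96 ± 0.24, again in every replicate. The sum for 11101 lies close to the lowest measurable value, so a departure below it could hardly be measured and the shared sign carries little weight. In contrast, 00101 was above it by 1.20 ± 0.20 in TKO cells and by 0.04 ± 0.09 in wild-type. The fully mutated construct, at the end of the scale, lay 0.77 ± 0.03 above the sum in wild-type, and 00111 was itself near the lowest measurable value.

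CpG number, OE and G+C content move together by design. Each mutated CpG removes exactly 1 G or C base in all 32 combinations, from 266 in 00000 to 224 in the fully mutated construct, so a loss of CpGs and a loss of G+C cannot be told apart among these constructs. Across the 25 measured combinations the correlation of CpG number with mean log2 activity was r = 0.885 (Spearman 0.925) in wild-type and r = 0.868 (0.896) in TKO cells. These are descriptions over constructs that share windows and libraries. Of 298 pairs of combinations with unequal numbers of CpGs, the one with fewer CpGs was more active in 35, or 11.7%, in wild-type. In 10 of them the wild-type replicates did not overlap, and in 4 this was so in both lines. Most of the 10 contain 00100 or 11001, which have 2 wild-type replicates each, on 3 and 4 BCs. All 4 contain 11001 or 01101, which were near the lowest measurable value in both lines. How often replicates did not overlap over all 298 pairs was not counted.

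Such exceptions occurred at low and at high numbers of CpGs. With 13 CpGs, 01011 had -3.28, -3.04 and -3.03 in wild-type, above 01101 with 16 CpGs, which had -4.02, -4.10 and -4.22. In TKO cells this order was not seen, with means of -4.03 and -3.91. With 14 CpGs, 11110 was 0.81 above 01101 in wild-type and 0.89 above it in TKO cells. Among constructs with many CpGs, 10010 with 30 CpGs was 1.40 above 00100 with 38 CpGs in wild-type without overlap, and 0.23 above it in TKO cells, where the replicates overlapped. A gap of 1 CpG could also go with a large difference, as 01100 with 28 CpGs had means of -1.91 and -2.75 and 00110 with 29 CpGs had -0.32 and 0.48. The replicates of these 2 constructs overlapped in wild-type and did not overlap in TKO cells.

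Among the measured combinations, 2 pairs have exactly the same number of CpGs, OE and G+C. With 23 CpGs, 00011 had -2.43, -2.75 and -1.91 in wild-type and 11100 had -2.73, -3.14 and -2.26, a difference of 0.34 that did not pass (two-sided exact permutation test, p = 0.5, 3 against 3 replicates). In TKO cells the difference was -0.12 (exact permutation test, p = 0.7). The test took the replicates as unpaired, although 00011 was above 11100 in each wild-type replicate. Their order in TKO cells changed between replicates. With 17 CpGs, 00111 and 11001 differed by 0.31 in wild-type (exact permutation test, p = 0.8) and 0.48 in TKO cells (p = 0.2, exact permutation test), both close to the end of the scale. The smallest p that these designs allow is 0.1, so they cannot pass the threshold.

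DNA methylation is given by the authors for 20 combinations as the methylated fraction averaged over the CpGs of the promoter, without coverage, replicates or the cell line it was measured in, and 19 of these have activities. It was low at most CpG numbers and was higher in constructs with few CpGs. The highest values were 72.4% for the fully mutated construct with 2 CpGs, 39.5% for 11101, 25.5% for 11011, 23.3% for 01111, 14.8% for 11110 and 12% for 01101. These 6 combinations have 2 to 16 CpGs, and each has window 2 and at least 2 more windows mutated, as do 01110 and 11100 among the others. The other 14, with 12 to 44 CpGs, lay between 0 and 8.33%, with a median of 3.08%. Of these, 10111 with 12 CpGs had 8.33% and 10101 with 21 CpGs 5.04%.

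Methylation was 3.71% in 00111, 3.69% in 00100, 3.57% in 00110, 3.46% in 10100, 2.71% in 01110, 2.67% in 10110, 2.57% in 10010 and 2.27% in 00011. The lowest values were 1.52% in 11100, 0.535% in 00101 and 0 in 01100. Low methylation did not go with a particular activity, since 00111 was near the lowest measurable value and 10010 among the most active. The value of 00000, 3.45%, is identical in all digits to that of the Snx3 reference. Across the combinations methylation and CpG number had r = -0.693 (Spearman -0.727, n = 20), and methylation and wild-type activity r = -0.552 (Spearman -0.667, n = 19). Both are descriptions, and CpG number enters both.

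The 6 combinations with at least 10% methylation were also inactive or weak in TKO cells, which lack DNA methyltransferases. Their means were -4.32 to -3.31 in wild-type and -4.32 to -3.02 in TKO cells, and 4 of the 6 were near the lowest measurable value in each line. Their change from wild-type to TKO cells had a median of 0.13 and a range from 0.00 to 0.45, against a median of 0.07 and a range from -0.92 to 1.37 over all 25 combinations. The most methylated, the fully mutated construct, changed by 0.01 and the next, 11101, by 0.45 (adjusted p = 0.576, limma). For 11011, 01111 and the fully mutated construct, both lines were at the end of the scale, where a change below it cannot be seen.

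RT-qPCR of the reporter in single clones is given for 9 combinations, without replicates and on a scale whose reference is not stated, so only the order is used. The signal was highest for 10010, at 0.0120, which was also the most active of the 9 in both lines. It was 0.00407 for 01110, 0.00380 for 10011, 0.00301 for 11010 and 0.00219 for the fully mutated construct. The lowest signals were 8.84e-04 for 01011, 4.43e-04 for 00111, 1.26e-04 for 10111 and 4.01e-05 for 01111. The log2 signal and wild-type log2 activity had r = 0.723 (Spearman 0.8, n = 9), and r was 0.718 (Spearman 0.783) with TKO activity. The clearest departure was the fully mutated construct, whose signal was above that of 4 combinations although its activity was at the lowest measurable value on 36 to 51 BCs in wild-type.

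The activities of the 25 combinations in TKO cells followed those in wild-type, with r = 0.925 (Spearman 0.943). None was called different between the lines (limma, 0% of 33 rows tested, adjusted p under 0.05). At an unadjusted p under 0.05 there were 2, both combinations. One was 00101, at -2.30, -2.31 and -2.43 in wild-type and -1.61, -0.73 and -0.59 in TKO cells (difference 1.37 ± 0.30 SE, adjusted p = 0.102). The other, 01011, was at -3.28, -3.04 and -3.03 in wild-type and -4.19, -3.70 and -4.21 in TKO cells (difference -0.92 ± 0.19 SE, adjusted p = 0.102). The changes of these 2 went in opposite directions. Both were picked by their low p from 33 rows, so the lack of overlap between their replicates adds nothing to the test. The TKO mean of 01011, -4.03, was near the lowest measurable value. Without TKO replicate 1, 3 rows passed. In no pair did the test call a difference between the lines in the effect of a window (limma, 0% of 54 pairs), and 6 pairs had an unadjusted p under 0.05. At a minimum of 10 BCs, 2 of 15 pairs differed. The sign of the mean difference was shared by 46 of the 54 pairs.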

How the data were processed

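The members, lists and tests were chosen with earlier results of these data known. Activities were deposited as linear ratios. Per the study's methods, the authors matched promoter reads of mutant libraries to their references by string distance, scaled RNA and DNA barcode counts to the smaller total, kept BCs with more than 20 DNA reads and averaged log2(RNA/DNA + 0.05) over BCs. Combinations that share most bases rely on that matching. Deposited activities are missing where fewer than 3 BCs were found. The authors also deposited OE as a ratio, G+C as a percent, methylation as a fraction and an RT-qPCR signal. Bowtie and mm9 are named in the submitters' processing notes. Bisulfite reads were processed with QuasR in the study, but its use for this methylation column is not stated.

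Here, differences from the reference, pair differences and sets of 4 were computed within a replicate and fitted with limma 3.58.1 (R 4.3.3) over all rows, pairs or sets that passed, one-sample within a line and as 2 groups between lines. P-values were adjusted by the Benjamini-Hochberg method, and 0.05 was the threshold. Missing replicates were left out of a fit. Equal-CpG pairs were compared by exact permutation (Python 3.11.15, scipy 1.17.1). The scripts were tested on simulated data with independent noise of the same SD in every construct and no lowest measurable value. That test therefore does not cover constructs near the end of the scale. Values were named for the reference, constructs with 0, 1, 4 or 5 mutated windows, the 3 highest and 3 lowest in wild-type, the largest and smallest loss per window, up to 5 called sets per direction, and every methylation and RT-qPCR value. Other constructs and pairs named with values were chosen after their values were seen.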

Additional observations from a re-analysis of the deposited data

How the results depend on the processing

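Counts of calls moved with single replicates, constructs near the lowest measurable value, the barcode minimum, the replicate block and the scale, and where the alternative itself does not show it, the cause was not tested. With one replicate left out at a time, 0 to 12 matched pairs were lower in wild-type, 0 to 7 sets of 4 were called in TKO cells, and 0 to 3 constructs differed between the lines. The mean pair differences then ranged in wild-type from -0.549 to -0.3993 for window 1, from -1.035 to -0.7504 for window 3 and from -0.9882 to -0.8005 for window 4, and in TKO cells from -0.6222 to -0.4623 for window 3. Without constructs near the lowest measurable value, 13 of 18 rows in wild-type and 13 of 18 in TKO cells were lower than the reference, 12 of 30 pairs in wild-type and 16 of 31 in TKO cells were lower, and 1 of 16 sets was called in TKO cells. The means were then -0.71 and -1.89 for windows 1 and 2 in wild-type, and -1.905, -0.74, -0.26 and -1.88 for windows 2 to 5 in TKO cells. These are fewer constructs by construction.

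With at least 10 BCs, 11 of 17 pairs were lower in wild-type, 3 of 5 sets were called in wild-type (all positive), and 2 of 15 pairs changed between the lines. Here the wild-type means were -0.41, -0.89, -0.38 and -1.75 for windows 1, 2, 4 and 5, and the TKO means -1.21 and -2.32 for windows 4 and 5. The reference has too few BCs for a comparison at this minimum. With 0.1 added to activity, which raises the lowest value, the wild-type means for windows 1 to 5 were -0.35, -1.04, -0.62, -0.59 and -1.40, and the TKO means for windows 2 to 5 were -1.14, -0.39, -0.38 and -1.39. On linear activity as a share of the reference, 0 sets were called in TKO cells.

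Same-numbered replicates of the lines were not paired by the labels, and their deviations had r of 0.30, 0.37 and -0.21 over 29 rows, with replicates 1 and 2 but not replicate 3 closest to their own number. With the replicate block, 0 constructs and 0 pairs differed between the lines, as without it. Within a line, treating constructs as unpaired groups (no replicate block) gave 29 lower pairs in wild-type and 14 in TKO cells, and 6 and 4 called sets.

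Of 544 values of named constructs, pairs and sets under alternatives, 13 changed sign, none of them a value that had passed its test. With a replicate left out, the difference from the reference ranged from -0.083 to 1.37 for 00010 and from -0.33 to 0.57 for 10100 in wild-type, and from -0.29 to 0.50 for 10010 and from -0.72 to 0.66 for 00100 in TKO cells. The pair from 00100 to 10100 ranged from -1.41 to 0.17 in TKO cells. Wild-type sets ranged from -0.64 to 1.55 (windows 2 and 3 from 00010), from -0.10 to 0.54 (windows 1 and 2 from 00101) and from -2.08 to 0.29 (windows 3 and 5 from 00010). Windows 4 and 5 from 10100 gave 0.41 with 0.1 added. On the linear scale the wild-type sets gave -0.024 (windows 1 and 2 from 00101), 0.338 (1 and 3 from 00010), 1.10 (3 and 5 from 00010) and 0.596 (4 and 5 from 10100).

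A minimum of 1 BC, or leaving out values on fewer than 3 BCs, changed nothing, since deposited activities are missing there. The combination 00000 could not serve as reference, having no values. Activity relative to the reference or to the median row gave 0 constructs that differed between the lines. Few BCs per value and the pseudocount limit what can be seen at both ends of the scale.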
